A study of Mus musculus with 6 samples.

Results

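The genes described here are 47 microtubule cytoskeleton and neurite maturation genes, chosen by name from a table of 20040 entries of transcript abundance in cultured mouse cortical neurons. They comprise the doublecortin family (3 genes), the SoxC transcription factors (2), β-tubulins (6), α-tubulins (3), stathmins (4), growth cone and MARCKS proteins (4), collapsin response mediator proteins (5), microtubule-associated proteins (7), neuronal intermediate filament proteins (4), kinesins (6), and ankyrins and spectrin (3). All 47 were in the table, and all 47 passed the filter on low values (0.5 TPM averaged over the 6 libraries; TPM is a read count scaled to gene length and to the library total). The rule uses no measured value, but the choice was made with earlier results of these data known.

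Neurites are supported by microtubules, polymers of paired α- and β-tubulin whose isotypes are made from separate genes. Young, growing neurites carry dynamic microtubules and express doublecortin, SoxC factors, the isotypes Tubb2b and Tubb3, growth cone proteins and the microtubule-associated protein Map1b. As axons and dendrites mature, neurofilament proteins, Map1a and the isotype Tubb4a become more abundant, and ankyrin-G and βIV-spectrin build the axon initial segment.

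The study compared wild-type (WT) with KDM6B KO neurons, 3 libraries each. KDM6B is a histone demethylase that removes repressive methyl groups from histone H3. Both groups were on the C57BL/6 background, and the cells were dissociated from the cortex of embryos at embryonic day 18. The cultures received no treatment named in the labels, and the labels do not give the days in culture, the KO allele, a Cre driver or the origin of the replicates. The p-values therefore speak only to how far these libraries differ, and part of that spread may be technical.

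Whole read counts recovered from the TPM values summed to between 19761714 and 23503658 per library; these totals are lower limits, since the smallest counts that fit each gene's values were taken. Kdm6b (chr11:69398508-69413675) measured 30.9, 30.3 and 30.7 TPM in the WT libraries and 11.2, 11.1 and 12.0 TPM in the KO libraries, or 37.3% of the WT mean (adjusted p = 1.09e-05), as 1 value for the gene, with the deleted part not named in the labels. Positions here and below are on GRCm38 (mm10), from GENCODE M21. Neuronal and astrocyte markers were both abundant. The summed level of 10 pan-neuronal markers was 4281 to 4336 TPM in WT and 4301 to 4354 TPM in KO, with 0 called higher and 1 lower. Over 10 astrocyte markers it was 4647 to 4815 TPM in WT and 5196 to 5386 TPM in KO (3 higher, 1 lower), with a median log2 fold change of -0.05 over the list, and voom called 3 higher and 4 lower. The 10 GABAergic markers summed to 1293 to 1336 TPM in WT and 956 to 1037 TPM in KO (1 higher, 8 lower), and the 8 glutamatergic markers to 945 to 965 TPM and 682 to 722 TPM (0 higher, 4 lower). The 12 markers of dividing cells and progenitors summed to 820 to 900 TPM in WT and 703 to 741 TPM in KO. Of the 11 tested 0 were higher and 2 lower, with a median log2 fold change of -0.07. Of 9 tested oligodendrocyte markers 0 were higher and 2 lower. Microglia markers were under 1 TPM in every library for 8 of 10 genes, and endothelial and mural markers for 4 of 10. The groups also differed in sex mix: Xist was 70.8 to 77.7 TPM in WT and 224 to 241 TPM in KO, and all 4 Y-linked genes measured were lower in KO. Together these 5 genes summed to 162 to 172 TPM in WT and 224 to 241 TPM in KO, with a median log2 fold change of -4.69. The KO sum was thus nearly all Xist, with Y-linked transcripts almost absent. Sex mix and genotype changed together in these libraries. The part of any of these differences in the results below was not tested, and in bulk RNA fewer cells of a type and less RNA per cell cannot be told apart.

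Tubulin and growth cone transcripts were among the most abundant of the table. Tuba1a ranked 3rd of all entries with a mean of 5489 TPM over the 6 libraries, Stmn1 11th with 2867 TPM and Tubb2b 14th with 2272 TPM. Means were at least 1000 TPM for 14 members and at least 50 TPM for 43. The least abundant were Sptbn4 (31.7 TPM), Map7 (18.3 TPM), Nefh (12.0 TPM) and Tubb6 (6.54 TPM). Tubb6 rested on as few as 51 recovered counts in a library, and the other 46 members on at least 255.

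In KO neurons 13 members were higher and 5 lower than in WT at an adjusted p below 0.05 (limma on log2(TPM + 0.5), with Benjamini-Hochberg adjustment across the 14983 genes tested, as everywhere below), and 29 were not called. Over all tested genes 10.9% were called: 4.15% were higher and 6.74% lower. Among the 4440 tested genes that averaged 50 TPM or more, a threshold set after the data were seen, 16.2% were called: 6.71% were higher and 9.53% lower. The members higher in KO were Dcx, Sox4, Sox11, Tubb3, Tubb2b, Gap43, Marcksl1, Dpysl5, Map1b, Map6, Mapt, Nefm and Ina, at 1.07 to 1.16 times the WT mean. The members lower in KO were Tubb6, Tuba4a, Map1a, Map7 and Nefh, at 65.6% to 90.7% of the WT mean. The median log2 fold change was 0.06 over the members and -0.02 over all tested genes. In 22 members every KO library lay above every WT library, and in 7 every KO library lay below. The same patterns held for 12.5% and 19.2% of all tested genes. All 18 called members were among these 29. Of the 18 calls, 4 (Tubb2b, Dpysl5, Map1a and Ina) were also made in all 6 fits that left out 1 library each; those fits called 4 to 10 members higher and 1 to 3 lower, and 345 to 440 and 493 to 678 of all genes. Without the variance trend the calls were 4 in number: Dpysl5 and Ina higher, Map7 and Nefh lower. With no filter on low values 6 members were higher, without Sox4, Sox11, Gap43, Marcksl1, Map1b, Map6 and Mapt. With voom on the recovered counts 25 members were higher and 5 lower. Voom kept all 18 calls and added as higher Dclk2, Tubb5, Tuba1a, Stmn1, Stmn2, Stmn4, Crmp1, Dpysl3, Map2, Map4, Nefl and Kif1a.

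**Figure D1:**
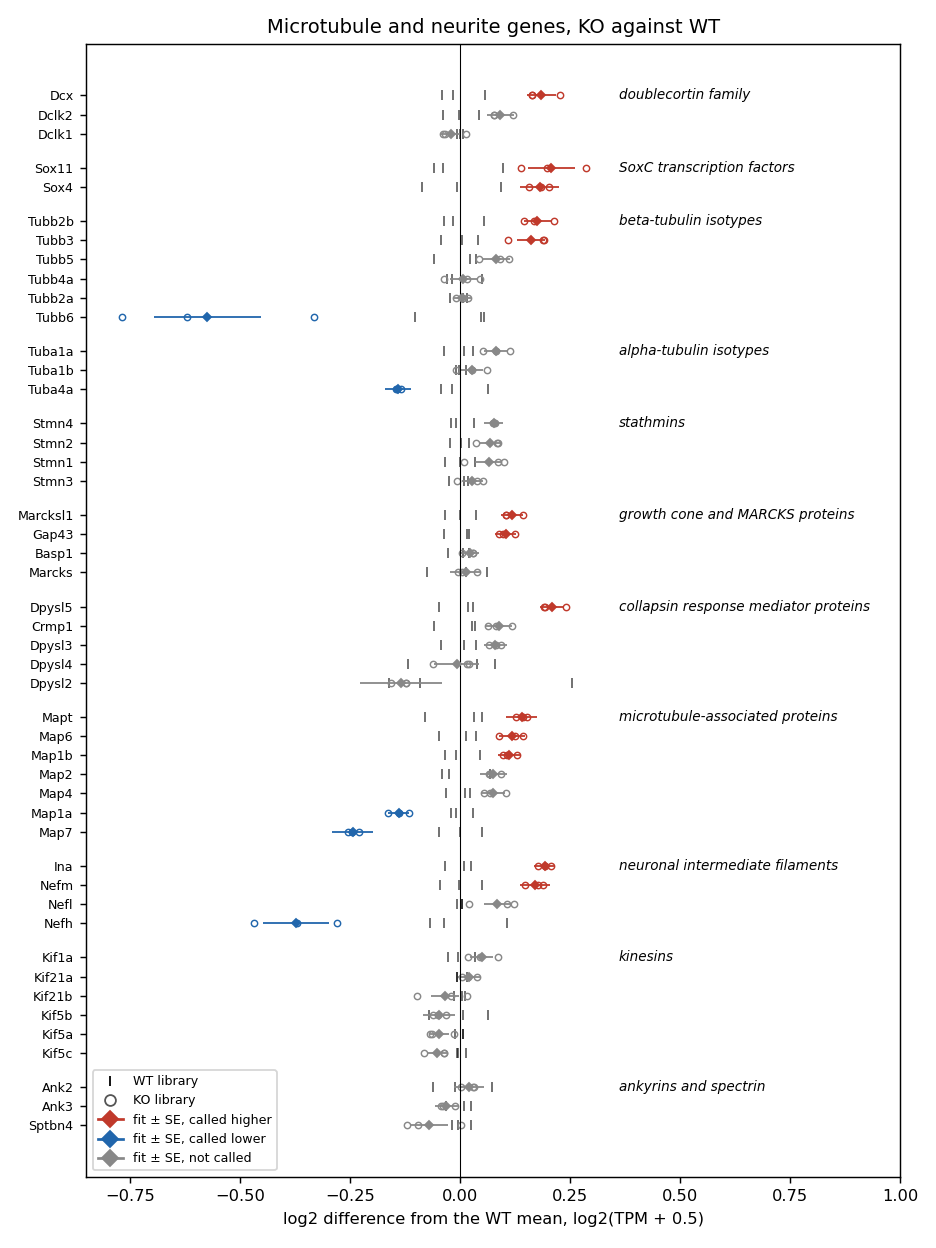
Each of the 47 members is a row, grouped by role, and the horizontal axis is the difference from the WT mean on the log2(TPM + 0.5) scale. Ticks are WT libraries, open circles are KO libraries, and diamonds with bars are the fitted log2 fold change ± SE; red marks the 13 members called higher in KO, blue the 5 called lower and grey the 29 not called.

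Dcx encodes doublecortin, a microtubule-stabilising protein of migrating and newly differentiated neurons. Dcx (chrX:143855842-143933311) measured 182, 179 and 192 TPM in WT 1 to 3 and 216, 206 and 206 TPM in KO 1 to 3. Every KO library lay above every WT library (log2 fold change 0.18 ± 0.03 SE, adjusted p = 0.0118). Without WT 1 the adjusted p was 0.0549. Dcx was the only X-linked member, and of 499 X-linked genes tested 11.8% were called, 25 higher and 34 lower, with a median log2 fold change of -0.01. Its relatives Dclk1 and Dclk2, kinases with a doublecortin domain, were not called: Dclk1 was 314 to 317 TPM in WT and 307 to 318 TPM in KO (adjusted p = 0.641). Dclk2 was 79.3 to 83.8 TPM in WT and 85.9 to 88.5 TPM in KO (adjusted p = 0.106).

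Sox4 and Sox11 are the SoxC transcription factors of immature neurons, known to activate Dcx and Tubb3. Sox11 (chr12:27334264-27342574) measured 63.6, 62.7 and 69.9 TPM in WT 1 to 3 and 79.7, 75.0 and 72.0 TPM in KO 1 to 3. The lowest KO library stood just above WT 3, the highest WT library (log2 fold change 0.21 ± 0.05 SE, adjusted p = 0.0444). Sox4 (chr13:28948919-28953713) measured 127, 120.1 and 136 TPM in WT, against 145, 147 and 142 TPM in KO, again without overlap (log2 fold change 0.18 ± 0.04 SE, adjusted p = 0.0377). Both calls were lost in 5 of the 6 fits that left out a library and were kept without WT 3; the adjusted p reached 0.141 for Sox11 and 0.116 for Sox4. The Sox4 call was also lost with quantile normalization (adjusted p = 0.0594). Of the 50-base stretches of the Sox4 transcript, 54.1% also occurred in the annotated transcript Gm26735, so its count could be split or shared.

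The sequences upstream of Dcx, Sox4, Sox11, Dpysl5 and Ina are shown because all of them were called higher in KO and because RefSeq promoters were given for them (28 of the 47 members matched). Each is the stretch of up to 250 bases before the gene's start, from RefSeq on GRCm38.p6, without the bases that are exonic in the gene annotation. Capitals mark 3 motifs found on either strand: CANNTG, the E-box bound by bHLH factors; ACAAAG, a core of SOX binding sites; and TATAAA, the TATA box.
Dcx (chrX:143933312-143933469, minus strand): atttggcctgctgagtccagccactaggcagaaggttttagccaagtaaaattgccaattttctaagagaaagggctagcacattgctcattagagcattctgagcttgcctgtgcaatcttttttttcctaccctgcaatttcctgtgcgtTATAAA
Sox4 (chr13:28953714-28953949, minus strand): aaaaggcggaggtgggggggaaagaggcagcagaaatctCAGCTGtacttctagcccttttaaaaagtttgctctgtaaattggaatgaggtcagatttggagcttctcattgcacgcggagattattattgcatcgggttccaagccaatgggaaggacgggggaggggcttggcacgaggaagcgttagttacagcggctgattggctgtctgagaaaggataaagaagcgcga
Sox11 (chr12:27342719-27342968, minus strand): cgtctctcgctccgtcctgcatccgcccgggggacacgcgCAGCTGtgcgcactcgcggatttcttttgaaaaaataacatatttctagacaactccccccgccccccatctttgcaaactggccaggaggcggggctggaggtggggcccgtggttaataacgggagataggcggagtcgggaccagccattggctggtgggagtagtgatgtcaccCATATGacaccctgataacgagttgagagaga
Dpysl5 (chr5:30711314-30711563, plus strand): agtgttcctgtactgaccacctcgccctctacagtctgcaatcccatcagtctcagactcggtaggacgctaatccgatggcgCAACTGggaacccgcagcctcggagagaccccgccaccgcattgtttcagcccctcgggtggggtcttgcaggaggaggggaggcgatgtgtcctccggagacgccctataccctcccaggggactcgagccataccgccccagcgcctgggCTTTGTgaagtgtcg
Ina (chr19:47014431-47014680, plus strand): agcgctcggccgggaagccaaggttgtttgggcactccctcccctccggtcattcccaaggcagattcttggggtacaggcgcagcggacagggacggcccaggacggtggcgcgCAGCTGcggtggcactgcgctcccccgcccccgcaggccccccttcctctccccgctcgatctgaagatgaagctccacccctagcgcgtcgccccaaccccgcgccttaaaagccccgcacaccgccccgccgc
The Dcx stretch held 1 TATAAA, at its gene-proximal end, and no CANNTG or ACAAAG. Sox4 held 1 CANNTG, Sox11 2 and Ina 1. Dpysl5 held 1 CANNTG and 1 ACAAAG, the latter on the opposite strand. Over all 32851 RefSeq promoters, in the 250 bases before the start, CANNTG occurred in 66.2%, ACAAAG in 16.5% and TATAAA in 12.4%. Over the 39 promoters of members the shares were 71.8%, 20.5% and 15.4%. Member promoters were richer in CpG, with a median of 17 CpG against 6 over all promoters. The 39 promoters came from 28 members, and promoters of other genes with similar expression were not compared.

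Among the β-tubulins, Tubb2b and Tubb3 were higher in KO, Tubb6 was lower, and Tubb2a, Tubb4a and Tubb5 were not called. Tubb2b, an isotype of migrating and young neurons, measured 2214, 2109.5 and 2079 TPM in WT 1 to 3 and 2359, 2472 and 2396 TPM in KO 1 to 3 (chr13:34126748-34130466). The groups did not overlap (log2 fold change 0.18 ± 0.03 SE, adjusted p = 0.0105). Leaving out any single library kept the call, with an adjusted p up to 0.0488, but quantile normalization did not (log2 fold change 0.11, adjusted p = 0.115). Tubb3, the neuron-specific isotype, measured 1801, 1755 and 1697 TPM in WT, against 1888, 1996 and 1993 TPM in KO (chr8:123411424-123422015). KO 1 was the lowest KO library and still lay above WT 1, the highest WT library (log2 fold change 0.16 ± 0.03 SE, adjusted p = 0.0173). The call was lost without WT 2, KO 2 or KO 3, with an adjusted p up to 0.0705, and with quantile normalization, where the log2 fold change was 0.09 (adjusted p = 0.0539). Tubb6, a minor isotype in brain, measured 7.32, 8.22 and 8.18 TPM in WT, against 4.96, 6.16 and 4.42 TPM in KO (chr18:67390717-67402749). It had the largest fold change of the members, log2 -0.57 ± 0.12 SE (adjusted p = 0.0226), on the lowest counts. That call held in 1 of the 6 fits, the one without KO 2, and the adjusted p reached 0.0769 in the others.

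Tubb5, a widely expressed isotype, ranged from 1714 to 1829.7 TPM in WT and from 1839 to 1929 TPM in KO, with no overlap (adjusted p = 0.148). Tubb2a measured 1405 to 1444 TPM in WT and 1418 to 1444 TPM in KO (adjusted p = 0.922). Tubb4a, counted among the late genes below, measured 656, 625 and 619.9 TPM in WT, against 617, 639.7 and 653 TPM in KO (chr17:57080066-57087782, adjusted p = 0.917). The Tubb2a and Tubb4a libraries of the 2 groups were mixed in order.

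Tubb2b and Tubb2a lie near each other on chromosome 13 and have nearly the same coding sequence. Their coding sequences of 1338 bases were 96.5% identical, whereas every other pair among Tubb2b, Tubb2a, Tubb3, Tubb4a and Tubb5 was 81.4% to 84.6% identical. The last 60 coding bases, stop codon included, are shown from the reference genome (GRCm38, GENCODE M21) because they encode the acidic tails in which the isotypes differ most. Capitals mark bases not aligned to the same base of Tubb2b.
Tubb2b (chr13:34127471-34127530, minus strand): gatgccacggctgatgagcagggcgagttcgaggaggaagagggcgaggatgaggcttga
Tubb2a (chr13:34074468-34074527, minus strand): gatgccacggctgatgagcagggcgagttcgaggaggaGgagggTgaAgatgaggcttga
Tubb3 (chr8:123421623-123421682, plus strand): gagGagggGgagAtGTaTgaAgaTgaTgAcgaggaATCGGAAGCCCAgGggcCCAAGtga
Tubb4a (chr17:57080690-57080749, minus strand): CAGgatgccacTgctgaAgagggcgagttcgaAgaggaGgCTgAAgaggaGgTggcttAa
Tubb5 (chr17:35834982-35835041, minus strand): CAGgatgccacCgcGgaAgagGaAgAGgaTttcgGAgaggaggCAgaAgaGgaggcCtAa
Of these 60 bases, 3 of Tubb2a were not aligned to the same base of Tubb2b, 14 of Tubb4a, 19 of Tubb5 and 28 of Tubb3. Coding sequences were 1338 bases in Tubb2b and Tubb2a, 1335 in Tubb4a and Tubb5, and 1353 in Tubb3. The windows of Tubb4a, Tubb5 and Tubb3 thus need not cover the same stretch as that of Tubb2b. Their counts can include bases whose partner lies outside the Tubb2b window, and are not counts of differences alone. Over the whole transcript, 33.4% of the 50-base stretches of Tubb2b also occurred in Tubb2a and 45.6% of those of Tubb2a in Tubb2b, so reads could be assigned to either gene. The sources used here do not give how such reads were counted. The ratio of Tubb2b to Tubb2a was 1.54, 1.46 and 1.48 in WT 1 to 3 and 1.66, 1.72 and 1.66 in KO 1 to 3. The ratio was thus larger in each KO library than in each WT library.

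Of the α-tubulins, Tuba4a was lower in KO and the other 2 were not called. Tuba4a, the least abundant of the 3, measured 287, 271 and 267 TPM in WT 1 to 3 and 248, 249 and 250.3 TPM in KO 1 to 3 (chr1:75214228-75219865). All KO libraries were nearly equal and below every WT library (log2 fold change -0.14 ± 0.03 SE, adjusted p = 0.0236). The call was kept without WT 3 and lost in the other 5 fits (adjusted p up to 0.0749), and with median centring the adjusted p was 0.0503. In the annotation, 47.7% of its 50-base stretches were shared with the overlapping gene Stk16. Tuba1a, the main neuronal α-tubulin, was 5200.3 to 5440.2 TPM in WT and 5529 to 5768 TPM in KO, without overlap (adjusted p = 0.101). Tuba1b was 349.7 to 355 TPM in WT and 349.8 to 367 TPM in KO (adjusted p = 0.558). Both share most of their stretches with other genes (75.5% and 83.1%), chiefly Tuba1c.

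Summed over the 6 isotypes, β-tubulin transcripts came to 7740 ± 210.1 TPM in WT and 8332 ± 184 TPM in KO (mean ± SD, n = 3 each), or 107.6% of WT. The α-tubulin sum was 5960 ± 133 TPM in WT and 6253 ± 125 TPM in KO, or 104.9%. In both sums every KO library lay above every WT library. Within the β-tubulin sum, Tubb2b took 27.6% ± 0.339 in WT and 28.9% ± 0.323 in KO, and Tubb3 took 22.6% ± 0.0589 and 23.5% ± 0.261. Tubb2a took 18.5% ± 0.335 and 17.2% ± 0.262, and Tubb4a 8.18% ± 0.113 and 7.64% ± 0.127. Tubb5 took 23.1% ± 0.307 in WT and 22.7% ± 0.068 in KO, although in TPM every KO library lay above WT. A falling share thus need not mean a falling level. Tubb2a and Tubb4a, whose shares also fell, were at 100.3% and 100.5% of their WT means in TPM. Each of these shares separated the groups without overlap. They are given as a description, without a test.

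**Figure D2:**
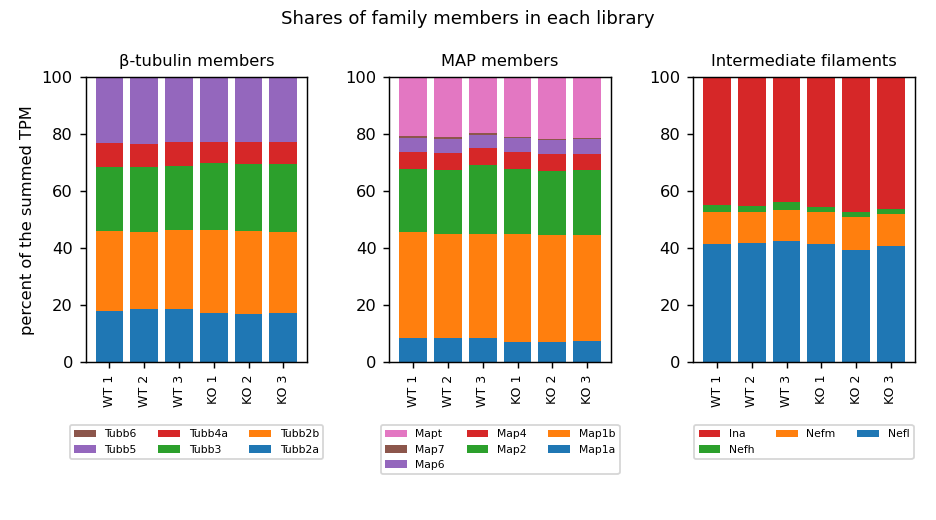
Stacked bars give each gene's share, in percent, of the summed TPM of its family in each library, for 6 β-tubulins, 7 microtubule-associated proteins (MAP) and 4 intermediate filament proteins. Shares moved by small amounts: Tubb2b from a mean of 27.6% in WT to 28.9% in KO, Map1a from 8.45% to 7.23%, and Nefh from 2.47% to 1.72%.

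Stathmins bind free tubulin dimers and destabilise microtubules. None of the 4 was called by limma, 2 had an unadjusted p below 0.05, and voom on the recovered counts called 3 higher. Stmn4 came closest, with 779 to 807 TPM in WT and 831 to 835 TPM in KO (adjusted p = 0.0613; 0.0247 with median centring). Stmn2 was 1998 to 2060.2 TPM in WT and 2081 to 2155 TPM in KO (adjusted p = 0.116). Neither overlapped between the groups. Stmn1 (2737 to 2869 TPM in WT, 2818 to 3003 TPM in KO) and Stmn3 (983 to 1013 TPM in WT, 995 to 1037 TPM in KO) did overlap.

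Of the growth cone and MARCKS proteins, Gap43 and Marcksl1 were higher in KO, and Basp1 and Marcks were not called. Gap43, a membrane protein of growing axons, measured 1819, 1823 and 1755 TPM in WT 1 to 3 and 1911, 1962 and 1924 TPM in KO 1 to 3 (chr16:42248442-42340651). The groups did not overlap, but the difference was the smallest among the called members (log2 fold change 0.10 ± 0.02 SE, adjusted p = 0.0321). It was lost in all 6 fits that left out a library (adjusted p up to 0.105) and had the opposite sign after quantile normalization (log2 fold change -0.00047, adjusted p = 0.991). Marcksl1, a MARCKS-like protein that binds actin and calmodulin, measured 1395, 1361 and 1328 TPM in WT, against 1464, 1463 and 1504 TPM in KO (chr4:129513581-129515985). Its KO libraries all stood above the WT libraries (log2 fold change 0.12 ± 0.03 SE, adjusted p = 0.0241). The call was kept without WT 1 and lost in the other 5 fits (adjusted p up to 0.0895), and after quantile normalization the log2 fold change was 0.06 (adjusted p = 0.187). Basp1 was at 101% of the WT mean (adjusted p = 0.604) and Marcks also at 101% (adjusted p = 0.871).

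Collapsin response mediator proteins carry semaphorin signals to the microtubules of the growth cone. Dpysl5 (CRMP5; chr5:30711564-30799375), expressed in newborn neurons, measured 554, 559 and 529.9 TPM in WT 1 to 3 and 626, 625 and 647 TPM in KO 1 to 3. The lowest KO library was well above the highest WT library (log2 fold change 0.21 ± 0.03 SE, adjusted p = 0.0033). The call held in every fit that left out a library (adjusted p up to 0.0177). The other 4 were not called. Dpysl3 was 1139 to 1204 TPM in WT and 1229.7 to 1253 TPM in KO (adjusted p = 0.089; 0.0413 with median centring). Crmp1 was 973 to 1037 TPM in WT and 1058 to 1100.3 TPM in KO (adjusted p = 0.111), also without overlap. Dpysl4 was at 99.3% of the WT mean. Dpysl2 measured 399, 379.7 and 507 TPM in WT 1 to 3 and 390.1, 381 and 390.2 TPM in KO 1 to 3 (adjusted p = 0.424). WT 3 stood apart from the other 5 libraries, which overlapped. That library also had the highest level of the ribosomal precursor Rn45s, 6990.2 TPM against 3750.0 to 4821 TPM in the others. Dpysl5 took 16.7% ± 0.389 of the CRMP sum in WT and 18.3% ± 0.145 in KO (SD, n = 3).

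The structural microtubule-associated proteins split in direction: Map1b, Map6 and Mapt were higher in KO, Map1a and Map7 lower, and Map2 and Map4 not called. Map1b, the MAP of growing axons, measured 1231, 1184 and 1164 TPM in WT 1 to 3 and 1304, 1276 and 1284 TPM in KO 1 to 3 (chr13:99421446-99516540). KO libraries lay above WT (log2 fold change 0.11 ± 0.03 SE, adjusted p = 0.0323); the call was kept without WT 1 and lost in the other 5 fits (adjusted p up to 0.103). Map1a, its relative of mature dendrites and axons, measured 279, 269.8 and 272 TPM in WT, against 248, 244 and 252 TPM in KO (chr2:121289600-121310832). Every KO library lay below every WT library (log2 fold change -0.14 ± 0.02 SE, adjusted p = 0.00997). The call held in all 6 fits (adjusted p up to 0.047). The ratio of Map1b to Map1a was 4.41, 4.39 and 4.28 in WT 1 to 3 and 5.25, 5.23 and 5.09 in KO 1 to 3. Map1a and Map1b thus moved in opposite directions, and their ratio separated the groups.

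Mapt encodes tau, an axonal MAP. It measured 685, 676 and 625 TPM in WT 1 to 3 and 722, 735 and 729.9 TPM in KO 1 to 3 (chr11:104231390-104332090; log2 fold change 0.14 ± 0.03 SE, adjusted p = 0.0416). WT 3 was the lowest library, and the call was kept without it and lost in the other 5 fits (adjusted p up to 0.12). Map6, which stabilises microtubules against cold, measured 160.1, 157 and 151 TPM in WT, against 170.0, 166 and 172 TPM in KO (chr7:99267447-99337137; log2 fold change 0.12 ± 0.03 SE, adjusted p = 0.0436). Its call was lost in all 6 fits (adjusted p up to 0.128), although the libraries of the groups did not overlap. Map7, a MAP that recruits kinesin-1, measured 19.2, 19.9 and 20.6 TPM in WT, against 16.6, 16.9 and 16.7 TPM in KO (chr10:20148471-20281590). KO libraries were close together below WT (log2 fold change -0.24 ± 0.05 SE, adjusted p = 0.016); the call was kept without WT 1 and lost in the other 5 fits, with an adjusted p up to 0.0524. Map2, the dendritic MAP, was 718 to 774 TPM in WT and 774 to 788 TPM in KO (adjusted p = 0.169; 0.0272 without WT 3). Map4, a broadly expressed MAP, was 187 to 195 TPM in WT and 199 to 206 TPM in KO (adjusted p = 0.111; 0.0463 with median centring).

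Neuronal intermediate filament proteins did not move together. Ina encodes α-internexin, a filament protein that neurons express before the neurofilament subunits. It measured 249, 247 and 239 TPM in WT 1 to 3 and 277, 279.8 and 283 TPM in KO 1 to 3 (chr19:47014698-47025327). Ina had the smallest adjusted p of the 47 members (log2 fold change 0.19 ± 0.02 SE, adjusted p = 0.00256), with no overlap and with the call kept in all 6 fits (adjusted p up to 0.015). Nefm, the medium neurofilament subunit, measured 62.9, 58.9 and 60.7 TPM in WT, against 68.8, 67.3 and 69.3 TPM in KO (chr14:68082590-68124846). It was higher in KO (log2 fold change 0.17 ± 0.03 SE, adjusted p = 0.0178), a call lost without WT 2, KO 1 or KO 3 (adjusted p up to 0.0641). Nefl, the light subunit, measured 231, 229 and 231 TPM in WT, against 251, 234 and 248 TPM in KO (chr14:68083863-68089095). KO 2 lay close to the WT libraries but above all of them, so the groups did not overlap. Nefl was not called by limma (adjusted p = 0.125; 0.0445 without KO 2), whereas voom called it higher (adjusted p = 0.0362). Nefh, the heavy subunit, measured 13.2, 12.9 and 14.6 TPM in WT, against 10.4, 11.1 and 9.66 TPM in KO (chr11:4938754-4948064). It was lower in KO (log2 fold change -0.37 ± 0.08 SE, adjusted p = 0.0191). That call was lost without WT 1, WT 3, KO 1 or KO 3 (adjusted p up to 0.0634).

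Annotated transcripts of Nefl and Nefm overlap on opposite strands, and 31.8% of the 50-base stretches of Nefl also occur in Nefm. The sources used here do not give whether counting used the strand. The ratio of Nefh to Nefl was 0.0589 ± 0.00377 in WT and 0.0426 ± 0.00438 in KO (SD, n = 3), and that of Nefm to Nefl was 0.264 ± 0.0078 and 0.281 ± 0.00698. The heavy subunit thus lay lower against the light subunit in KO, and the medium subunit higher, with no overlap between the groups in either ratio. The 4 genes summed to 549.8 ± 5.67 TPM in WT and 603 ± 9.62 TPM in KO, or 109.7% of WT, and no KO sum lay within the WT range.

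The early genes Dcx, Sox4, Sox11 and Tubb2b were set against the late genes Nefl, Nefm, Nefh, Map1a and Tubb4a. All 4 early genes were higher in KO, with a median log2 fold change of 0.18. The late genes did not move as a block: Nefm was higher, Nefh and Map1a were lower, Nefl and Tubb4a were not called, and the median was 0.01. The mean log2 level of the early genes minus that of the late genes was 0.88, 0.89 and 0.94 in WT 1 to 3 and 1.17, 1.15 and 1.11 in KO 1 to 3. All KO libraries lay above all WT libraries, by 0.24 on average (SD 0.03 in each group). The early genes contributed a difference of 0.19 (KO minus WT) and the late genes one of -0.05. The late value averaged falls in Nefh (-0.37) and Map1a (-0.14) with values above 0 in Nefm (0.17), Nefl (0.08) and Tubb4a (0.01). Nefh, the least abundant of the late genes, had the largest of these changes, and the score was not recomputed without it. With Ina, which was higher in KO, added to the late genes the difference was 0.20. These scores are descriptions and carry no test.

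**Figure D3:**
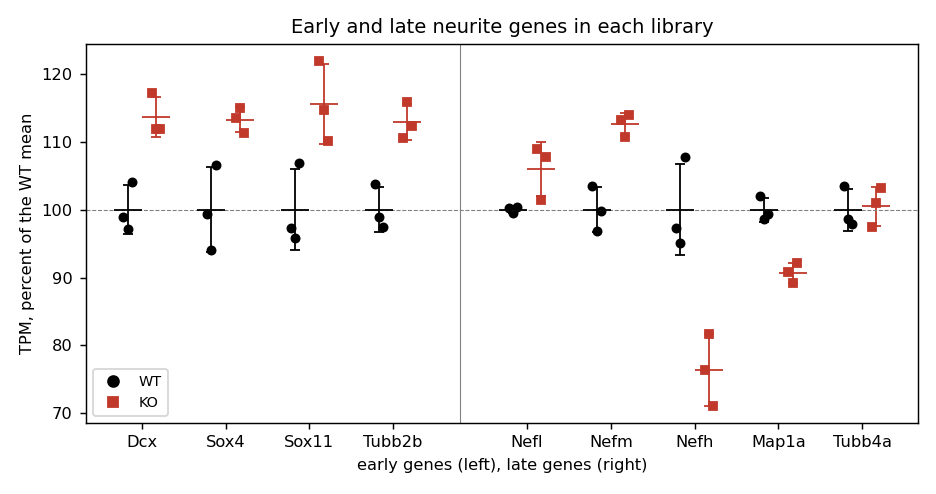
TPM in each library as a percent of the gene's WT mean, for 4 early genes (left) and 5 late genes (right). Black circles are WT libraries, red squares are KO libraries, and bars are the mean ± SD of 3 libraries; the early genes lie above 100% in every KO library, whereas the late genes range from 76.4% (Nefh, KO mean) to 113% (Nefm, KO mean).

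Kinesins carry cargo along these microtubules, and none of the 6 was called by limma. Only Kif5c had an unadjusted p below 0.05, with KO below WT. Voom did not call Kif5c, but called another kinesin, Kif1a, higher (adjusted p = 0.0207). Kif1a, the motor of synaptic vesicle precursors, was 761 to 794 TPM in WT and 786 to 824 TPM in KO (limma adjusted p = 0.285). The 3 kinesin-1 heavy chains lay slightly below WT in their means: Kif5c at 96.5% (adjusted p = 0.18), Kif5a at 96.7% (adjusted p = 0.224) and Kif5b at 96.7% (adjusted p = 0.457). Their sum was 1138 ± 7.53 TPM in WT and 1099 ± 17.02 TPM in KO (SD, n = 3), every KO library below every WT library. Kif21a was at 101% of WT and Kif21b at 97.7%. The ankyrins and βIV-spectrin were not called either: Ank2 was at 101% of WT, Ank3 (ankyrin-G) at 97.8% and Sptbn4 (βIV-spectrin) at 95.1%. Of these, 0 of 3 had an unadjusted p below 0.05 and 0 of 3 were called by voom.

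By level, the 13 members called higher had means between 64.7 TPM (Nefm) and 2272 TPM (Tubb2b), and the 3 members with the largest falls, Tubb6, Nefh and Map7, were the 3 least abundant ones. Tuba4a and Map1a, at 90.6% and 90.7% of their WT means, were expressed at 262 and 261 TPM, close to Ina at 262 TPM, which was higher in KO.

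**Figure D4:**
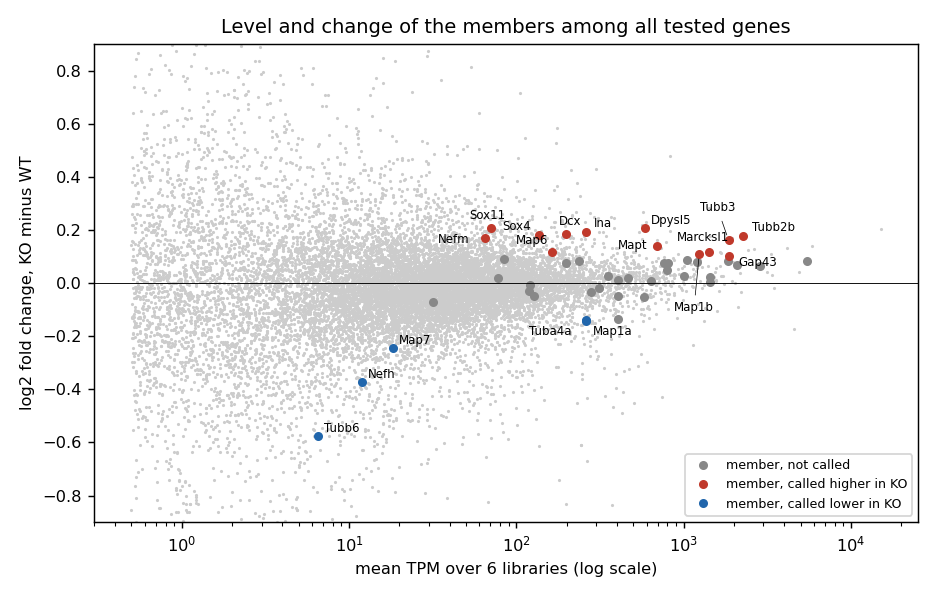
Mean TPM over 6 libraries (horizontal, log scale) against the log2 fold change, KO minus WT (vertical), for all tested genes in grey and the 47 members as larger points, red where called higher, blue where called lower and dark grey where not called. The members lie mostly at the high end of the abundance range, within 0.21 above 0 at their highest; 259 tested genes lie outside the vertical range of 0.9 and are not drawn.

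Other genes of the microtubule system were taken from lists of 140 genes, of which 138 were in the table and 137 were tested. Of these, 5 were higher in KO and 9 lower, with a median log2 fold change of -0.03. These 14 calls were near the share over all tested genes, where 10.9% were called, 4.15% higher and 6.74% lower. The counts of the single lists are to be read beside these shares. Among 7 other tubulins none was called by limma or voom, and 1 had an unadjusted p below 0.05: Tubb4b, with 519.6 ± 5.77 TPM in WT and 495 ± 9.95 TPM in KO (SD, n = 3; adjusted p = 0.0989). Among 16 tubulin folding and nucleation genes none was called by either, 3 had an unadjusted p below 0.05, and Tubgcp3, a γ-tubulin ring subunit, had the smallest p (32.6 ± 0.321 and 30.0 ± 0.923 TPM, adjusted p = 0.0961). Tubulin-modifying enzymes had 3 higher and 1 lower of 16. Atat1, the α-tubulin acetyltransferase, was higher in KO (149 ± 4.22 TPM in WT, 173 ± 1.94 TPM in KO, adjusted p = 0.00309). Vash1, a tubulin detyrosinase, was lower (94.5 ± 0.641 and 83.9 ± 3.32 TPM, adjusted p = 0.0164). Its call was lost without WT 1, KO 1 or KO 3 (adjusted p up to 0.0645). The related Vash2 went the other way and was higher (27.6 ± 2.71 and 33.6 ± 0.416 TPM, adjusted p = 0.0331). That call was kept without WT 2, with an adjusted p otherwise up to 0.102.

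Severing, capping and bundling proteins had 0 higher and 4 lower of 17. Mtcl1, a microtubule crosslinker, measured 13.8 ± 0.356 TPM in WT and 10.9 ± 0.21 TPM in KO (adjusted p = 0.00861). Tppp, a tubulin polymerisation protein, measured 130.5 ± 4.54 and 117 ± 1.85 TPM (adjusted p = 0.0179; up to 0.0646 and lost without KO 1 or KO 3). Plus-end binding proteins had 0 higher and 1 lower of 17, Clip4 (23.2 ± 0.956 and 20.0 ± 0.184 TPM, adjusted p = 0.0265; kept without WT 2, otherwise up to 0.0917). Of 29 other kinesins 2 were higher and 0 lower. Kif26b measured 10.6 ± 0.289 TPM in WT and 14.4 ± 0.533 TPM in KO (adjusted p = 0.00343), and Kif26a 6.42 ± 0.277 and 8.28 ± 0.125 TPM (adjusted p = 0.0205; kept without WT 3, otherwise up to 0.0706). Of 23 genes for dynein, dynactin and their regulators none was called by limma or voom and none had an unadjusted p below 0.05; Hook3 had the smallest p (37.6 ± 2.19 and 35.0 ± 0.488 TPM, adjusted p = 0.222). Of 12 other axon initial segment and spectrin genes 0 were higher and 3 lower. Sptbn1, βII-spectrin, measured 575 ± 7.92 and 537 ± 2.41 TPM (adjusted p = 0.0205; kept without WT 2 or WT 3, otherwise up to 0.0815; 0.0594 with median centring). Add1, α-adducin, measured 267 ± 4.43 and 250.5 ± 1.28 TPM (adjusted p = 0.0346; kept without WT 3, otherwise up to 0.12; 0.101 with median centring).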

How the data were processed

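Messenger RNA of cultured neurons was sequenced in 3 WT and 3 KO libraries. The authors deposited 1 table of TPM values, although its name speaks of FPKM; each library sums to 1000000. The build is mm10 and the tools named, per the submitters' processing notes, are TopHat, featureCounts, edgeR, Picard 1.127, bcl2fastq 2.17 and FastQC 0.11.2, with no role stated. The sources used here do not give the annotation, the strand setting or the read length. Whole counts and gene lengths were recovered from the TPM steps for 100.0% of 19369 entries above 0 (tolerance 0.001 counts plus 1e-08 of the value), as the smallest counts possible; in simulated libraries 96.4% of 2916 genes were exact.

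Log2(TPM + 0.5) of the 14983 entries with a mean of at least 0.5 TPM was fitted with limma 3.58.1 in R 4.3.3 (lmFit, eBayes with a variance trend), KO against WT, with Benjamini-Hochberg adjustment over all of them and calls at an adjusted p below 0.05; this scale understates changes of low genes. The procedure was also run on simulated data, in which the smallest changes were larger than those of the members called higher. That run does not speak to changes as small as these. Alternatives changed the pseudocount, filter, scaling, variance model, threshold, replicate block, libraries and test (voom on recovered counts). Members, role lists, marker lists, and the early and late groups were chosen with earlier results of these data known. Values in every library are given for called, early and late members. Of each other list the 2 called genes with the smallest adjusted p are named, or the 1 gene with the smallest p as values. Vash2 is named in addition, beside Vash1. Positions are from GENCODE M21 on GRCm38 (mm10). Shared stretches are 50-base words, either strand, of the longest coding transcript.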

Additional observations from a re-analysis of the deposited data

How the results depend on the processing

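Of 305 alternative values for the 18 called members, 203 kept direction and call, 101 kept direction and lost the call (63 of them in the 108 values that left out 1 library), and 1 reversed: Gap43 under quantile normalization, at a log2 fold change of -0.00047. Members called higher, 13 in the report, were 6 without a filter, 8 with quantile normalization, 2 without the variance trend, 25 with voom on recovered counts and 2 at an adjusted p below 0.01; members called lower, 5 in the report, were 2 without the trend and 1 at an adjusted p below 0.01. Leaving out 1 library gave 4 to 10 higher and 1 to 3 lower. Other microtubule genes, 5 higher and 9 lower, were 3 higher without a filter, 8 and 5 with median centring, 3 and 4 without the trend, 9 and 15 with voom, and 2 to 4 and 1 to 8 when 1 library was left out. Over all genes, 622 higher and 1010 lower, the counts were 406 and 658 without the trend, 1183 and 1432 with voom, 867 and 767 with median centring, 788 and 813 with quantile normalization, and 345 to 440 and 493 to 678 when 1 library was left out. Same-numbered WT and KO libraries did not deviate together (correlations 0.01, -0.05 and 0.01). This check cannot show whether same-numbered cultures shared an origin, which the labels do not give. With a replicate block 4 members were higher and 2 lower, as were 2 and 2 other microtubule genes, and 360 and 585 of all genes. The early-minus-late difference of 0.24 was 0.20 with Ina among the late genes. Without X and Y genes, an alternative chosen after seeing the data, 12 members were higher and 5 lower. Here those genes were only left out of the adjustment, and nothing was refitted. The missing call was that of Dcx, the only X-linked member, so this alternative cannot speak to the difference in sex mix. The cause of these changes was not tested.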
